A study of Mus musculus with 3 samples.

Results

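The transcripts described here encode the factors that carry mRNA through initiation, elongation and termination on the ribosome, together with the tRNA synthetases that charge tRNAs with their amino acids. They were taken by gene symbol: every probe annotated to an eukaryotic initiation factor (Eif followed by a digit), an elongation factor (Eef followed by a digit), a release factor (Etf1 or a Gspt gene) or an aminoacyl-tRNA synthetase of the cytoplasm or the mitochondrion. The rule found 152 of the 25697 probes on the array, standing for 94 of 16593 genes, and the probe with the highest signal, averaged over the arrays, stood for its gene.

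In translation, eIF4E holds the cap of the mRNA, the helicase eIF4A unwinds the leader, eIF2 brings the initiator tRNA and eIF3 holds the assembled parts on the small ribosomal subunit. eEF1 and eEF2 then extend the chain, and eRF1, the product of Etf1, recognises the stop codon. The early mouse embryo inherits both mRNA and ribosomes from the egg and replaces much of the maternal RNA around the 2-cell stage, when its own genome becomes active.

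Mouse 2-cell embryos of the strain given as F1B6C3H were compared on 3 Illumina BeadChip arrays. 1 array held 2-cell ctrl embryos, obtained by in vitro fertilisation of ovulated, competent MII eggs, and 2 held 2-cell NSN embryos, which came from incompetent eggs (replicates a and b, written NSN-a and NSN-b). The latter eggs came from oocytes whose chromatin does not surround the nucleolus (NSN), isolated from ovaries of juvenile females injected with PMSG and cultured to MII, so the chromatin type and the culture cannot be told apart. The sperm came from adult males, and the labels name no genetic change or further treatment in either group. No source used here says whether both NSN arrays held separate pools of embryos, so their spread may be technical, and the control had no replicate. The RNA passed through 2 rounds of amplification primed on the poly(A) tail, and fewer transcripts per embryo, a shorter tail and less RNA in the sample cannot be told apart.

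The values were background-subtracted intensities, negative where a spot was dimmer than the background. A signal was above background where it reached the array's limit for a detection p value of 0.01, which was 6.10 for the control, 8.57 for NSN-a and 8.28 for NSN-b. A gene was above background if it passed in the control or on both NSN arrays. The control array held far more such signals: 1086 probes (4.23%), against 193 (0.751%) and 203 (0.790%) on the NSN arrays, while the median signals of the 3 arrays were 0.0916, 0.0443 and 0.0195. Of 13 egg and 2-cell markers on the array, 9 were above background in the control and 1 (Ooep, a maternal-effect gene, at 24.1, 11.1 and 8.99) on both NSN arrays, with summed signals of 250 in the control and 25.9 and 26.3 on the NSN arrays. 0 of 9 markers of cumulus and granulosa cells and 0 of 7 of sperm and testis were above background on the same rule. The part of this unequal yield between arrays in the differences below was not tested.

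Translation factors, like most genes above background, were detected mainly on the control array. Of the 94 genes, 13 (13.8%) were above background, against 5.73% of all genes, and all 13 were so in the control. A single gene, Eif3i, was above background on all 3 arrays. Of the 950 genes of the whole array above background, 932 were so in the control and 124 on all 3 arrays. At least 1.5-fold lower signals in 2-cell NSN embryos were found for 8 of the 13 (61.5%), where 44.4% of all genes above background were lower. None of the 13 was higher, where 8.32% of all genes above background were, but 12 of the 13 passed through the control alone, and a gene that enters in this way can hardly be called higher, so nothing is read from this count. Over all genes these calls were 422 lower and 79 higher, and 248 and 119 after quantile normalisation or 573 and 33 after rescaling the NSN arrays to the control. The median log2 difference of the 13 was -1.21, beside -0.40 for all 950 genes above background, which is given as a description only, since it is set largely by the brightness of the control signals and by the NSN limits. For 7 of the 8 lower genes both NSN signals lay under the limit, so the fold is a lower bound, taken as the control signal over the mean of both NSN limits on the log2 scale.

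**Figure D1:**
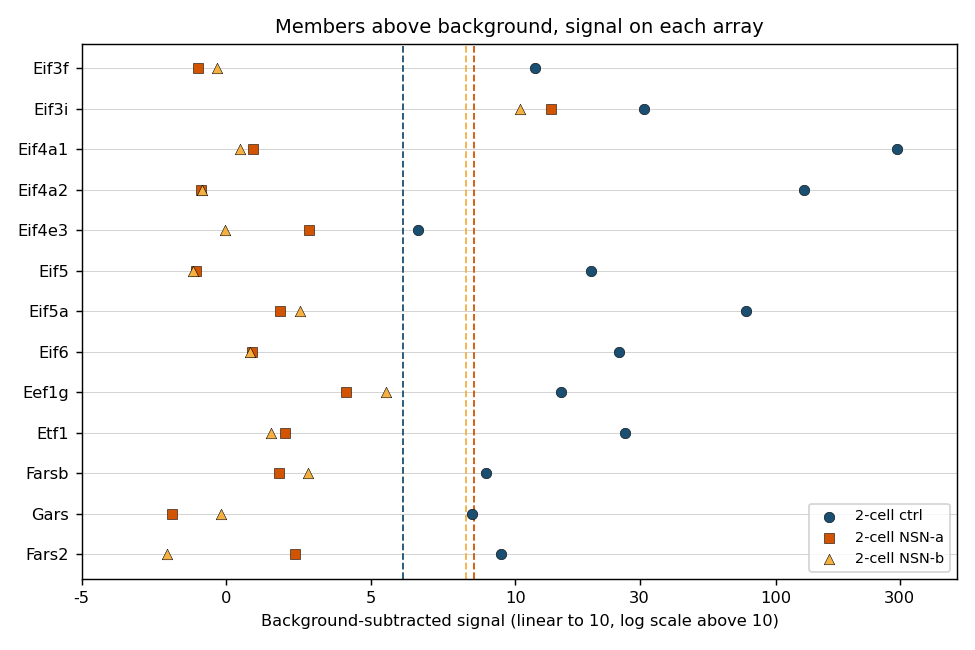
Signal of the 13 genes above background on each array (points), on an axis that is linear up to 10 and logarithmic beyond, with dashed lines at each array's limit for a detection p value of 0.01. All 13 control points lie at or beyond the control limit of 6.10, and Eif3i is the gene whose NSN points also lie beyond their limits.

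The eIF4A helicases, which open the structured leader of capped mRNAs, had the largest bounds among these genes. Eif4a1 had a signal of 294 in the control, 0.935 on NSN-a and 0.489 on NSN-b. The probe standing for the gene was thus well above background in the control and within the background on both NSN arrays. On this probe Eif4a1 was lower in 2-cell NSN embryos by at least 34.9-fold. The second Eif4a1 probe, at 1.82, 1.38 and -1.18, was within the background on every array. Eif4a2, the paralogue of Eif4a1, had signals of 128 in the control and of -0.890 and -0.842 on the NSN arrays, which is at least 15.3-fold lower. The second Eif4a2 probe was likewise within the background on every array. At the wider limits for a detection p value of 0.05 the bounds were 90.7-fold and 39.6-fold. The third helicase of the family, Eif4a3, a component of the exon junction complex, was not above background on any array, with signals of 2.81, 2.95 and 1.0.

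The promoters of both lower helicases are shown because these genes had the largest bounds. Whether they are regulated together was not tested. Of all 460 genes with a control signal of at least 12.6, 83.9% were likewise under the limit on both NSN arrays. The sequences are those of RefSeq on GRCm38.p6, from 250 bases before 1 annotated start of each gene to 30 bases after it. Eif4a1 lies at chr11:69672394-69672673 on the minus strand and Eif4a2 at chr16:23107218-23107497 on the plus strand. Capitals mark GGGCGG, the core of a GC box, and CCAAT, the CCAAT box, each searched on both strands, so that a GC box on the other strand reads CCGCCC.
Eif4a1: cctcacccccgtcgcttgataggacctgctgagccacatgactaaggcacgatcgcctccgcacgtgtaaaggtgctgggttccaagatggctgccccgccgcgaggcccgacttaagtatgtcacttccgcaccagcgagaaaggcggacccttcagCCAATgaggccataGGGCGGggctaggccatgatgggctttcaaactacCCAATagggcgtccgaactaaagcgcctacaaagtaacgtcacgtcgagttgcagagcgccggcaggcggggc
Eif4a2: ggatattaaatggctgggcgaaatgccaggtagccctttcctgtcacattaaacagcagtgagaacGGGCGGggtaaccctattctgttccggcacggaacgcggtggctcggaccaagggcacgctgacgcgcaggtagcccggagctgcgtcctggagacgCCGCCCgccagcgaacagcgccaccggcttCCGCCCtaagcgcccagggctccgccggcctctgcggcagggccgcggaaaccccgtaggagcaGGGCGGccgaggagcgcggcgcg
Counted from the start as position 1, the Eif4a1 window held GGGCGG at -78 and CCAAT at -92 and -43. The Eif4a2 window held GGGCGG at -184 and 8, its reverse complement at -87 and -57, and no CCAAT. The G and C content of the windows was 60.7% and 68.2%.

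Promoter windows of 300 bases were matched for 70 of the 94 genes, with 85 annotated starts. GGGCGG stood in 61 of the 85 (71.8%), against 35.7% of all 32851 windows, and in 6 of the 9 windows of the 4 lower genes matched (Eif4a1, Eif4a2, Eif5 and Eif5a). CCAAT stood in 26 windows (30.6%), against 37.4% of all, and TATAAA, the TATA box, in 7 (8.24%), against 13.6%. These are letter matches and not sites of binding.

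Many mRNAs of the translation machinery begin with a C followed by a run of pyrimidines, the TOP tract, through which mTOR signalling governs their translation. A C at the annotated start with at least 4 further pyrimidines was found at 3 of the 85 starts (3.53%), against 2.51% of all starts, and the 3 genes are shown with 30 bases on each side of the start and the tract in capitals.
Eif3f: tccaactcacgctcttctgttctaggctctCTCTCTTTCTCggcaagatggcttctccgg
Eif2s3x: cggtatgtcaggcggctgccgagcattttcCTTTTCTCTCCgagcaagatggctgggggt
Wars2: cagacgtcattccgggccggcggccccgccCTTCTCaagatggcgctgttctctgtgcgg
These lie at chr7:108934385-108934444 (plus strand), chrX:94212622-94212681 (minus strand) and chr3:99141060-99141119 (plus strand). Of the 3, Eif3f was above background in the control and is described with the other eIF3 subunits. Eif2s3x, the X-linked gamma subunit of eIF2, had signals of -0.295, 2.26 and 3.15, and Wars2, the mitochondrial tryptophanyl-tRNA synthetase, of 1.36, 2.59 and 0.415, none of them above background. None of the 9 matched starts of the lower genes, 6 of them starts of Eif5a, carried such a tract. The search required the tract to begin at the annotated start itself. A tract that begins a few bases away was missed, so a start without a match does not show that the mRNA lacks one.

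The remaining cap-binding factors gave weak signals. Eif4e3, a relative of the cap-binding protein, had a signal of 6.64 in the control and of 2.87 and -0.0593 on the NSN arrays, and since the control signal is under the NSN limits no fold can be given. Eif4e itself was within the background on every array, at -0.377, -2.11 and -0.190. Eif4e1b, the oocyte form of the cap-binding protein, had 5.87 in the control, just under the limit of 6.10, and 1.42 and 1.15 on the NSN arrays. None of the 4 eIF4E-binding proteins, which hold the cap-binding protein inactive, was above background even at a detection p value of 0.05, and the signals of Eif4ebp1 were 2.61, 0.973 and -1.27.

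Of the 5 genes of eIF5, eIF5A, eIF5B and eIF6, 3 were above background in the control and all 3 were lower in 2-cell NSN embryos. Eif5a carries the hypusine residue and relieves ribosomes stalled on difficult peptide bonds. Its signal was 77.0 in the control and 1.86 and 2.54 on the NSN arrays, at least 9.14-fold lower. Eif6, which keeps the large ribosomal subunit from joining too early, had 25.0 in the control and 0.882 and 0.824 on the NSN arrays, at least 2.97-fold lower. Eif5, the factor that makes eIF2 hydrolyse its GTP at the start codon, had 19.4 in the control and -1.06 and -1.14 on the NSN arrays, at least 2.31-fold lower. In these 3 genes both NSN signals lay within the background, so nothing is read from NSN-a and NSN-b differing by less than 1. Eif5b and Eif5a2 were not above background, at -1.25, -1.05 and -1.33 and at -0.609, 1.98 and -0.144.

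Eif3i, a WD-repeat subunit of eIF3, gave the only measured difference at a detection p value of 0.01. Its signal was 31.1 in the control, 13.7 on NSN-a and 10.5 on NSN-b, so both NSN arrays lay under the control and over their own limits. The level was 2.60-fold lower, and 2.27-fold and 2.97-fold lower on each NSN array. In limma over the 136 probes that passed the limit on every array, with 1 degree of freedom left for the spread and the control assumed to vary like the NSN arrays, the log2 difference was -1.38 (SE 0.23, adjusted p = 0.00711). This p value sets a single control array against the spread of 2 arrays that may be technical repeats, so it does not measure the spread between embryos. In that fit 22.8% of the probes were lower and 43.4% higher. A further Eif3i probe, at 13.8, 8.70 and 10.4, had a log2 difference of -0.54 (SE 0.22, adjusted p = 0.0903 in limma). Under a normexp correction with quantile normalisation the log2 difference of the brighter probe turned to 0.30 and that of the other probe to 0.44. After rescaling the NSN arrays to the control both probes stayed lower, at -1.87 and -1.03. The direction for Eif3i thus depended on the processing, and the cause was not tested.

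The other eIF3 subunits were detected less well. Eif3f, a subunit with an MPN domain, had 11.9 in the control and -0.981 and -0.333 on the NSN arrays, a bound of 1.41-fold that did not reach 1.5-fold. Eif3d, the subunit able to bind the cap of selected mRNAs, had 5.75, 1.21 and 1.52, and Eif3l 3.11, 3.17 and 2.76. The remaining 8 subunits ranged from -2.68 to 1.91 in the control, from -2.01 to 2.81 on NSN-a and from -1.65 to 3.30 on NSN-b.

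No gene grouped under start codon selection (4 genes, counting Eif1ad) or under eIF2, its exchange factor eIF2B and Eif2d (8 genes) was above background. The same held for the kinases that phosphorylate eIF2 (4 genes). Eif1a, whose transcript is a marker of genome activation in the mouse 2-cell embryo, had signals of 1.37, -0.206 and -0.980, all within the background, and its X-linked relative Eif1ax -1.20, -1.28 and 0.475. Eif1b, a start codon factor, had 2.99 in the control and -1.85 and -0.264 on the NSN arrays. Of the eIF2B subunits, Eif2b4 had 5.74 in the control and 0.0592 and 1.5 on the NSN arrays, and Eif2b5, the catalytic subunit, 1.24, 2.30 and 2.61. Eif2ak3, the kinase PERK of the endoplasmic reticulum, had 4.46, -2.37 and -0.458, the highest of them in the control. The other 3 kinases ranged from -2.38 to 0.787 in the control.

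Among 7 genes grouped as elongation factors, counting Eef1e1, a single gene was above background. Eef1g, the gamma subunit of the exchange factor that recharges eEF1A, had 15.0 in the control and 4.13 and 5.52 on the NSN arrays, and was at least 1.79-fold lower. This call was lost at a fold of 2, on a log2 scale with an offset of 16 and after quantile normalisation. Eef1b2, another subunit of the same exchange factor, had 3.25, 2.87 and 1.04. Eef2, the translocase, had 2.33, 3.96 and 2.20, and Eef1a2, the tissue-restricted form of eEF1A, 2.84, 4.73 and 1.06. Eef1a1, whose mRNA is among the most abundant of most mouse tissues, had -2.10, -0.243 and -1.93, so that a probe within the background here does not show that its mRNA was missing. The 4 modifiers of elongation factors ranged from -1.23 to 1.16 in the control, with the eEF2 kinase gene Eef2k at -1.23, 0.431 and -1.08.

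Of 3 release factors, Etf1 had 26.4 in the control and 2.02 and 1.56 on the NSN arrays, at least 3.13-fold lower. Its partners, the GTPases Gspt1 and Gspt2, were not above background, at 2.76, -1.53 and -0.904 for Gspt1 and at -2.52, -0.598 and -2.29 for Gspt2. Since Gspt1 and Gspt2 lay within the background on every array, the order of their signals is not read.

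The tRNA synthetases gave no call. Of 33 genes, 3 were above background, all in the control. Farsb, the beta subunit of the cytoplasmic phenylalanyl-tRNA synthetase, had 8.98, 1.84 and 2.84, a bound of 1.07-fold. Fars2, the mitochondrial enzyme for the same amino acid, had 9.51, 2.39 and -2.06, a bound of 1.13-fold. Gars, which charges glycine, had 8.50, -1.87 and -0.174, a bound of 1.01-fold. In these 3 genes and in Eif3f and Eif4e3 the control signal was under 12.6, the signal a gene needed to be called lower when both NSN signals lay under their limits. Of the 12 genes above background only in the control, 5 were under that signal, and they are the 5 not called. The counts for synthetases (0 of 3 lower) and other factors (8 of 10 lower) were not tested against each other, and a gene within the background on all arrays differs by 0.46 on the log2 scale (NSN over control) from the limits alone.

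**Figure D2:**
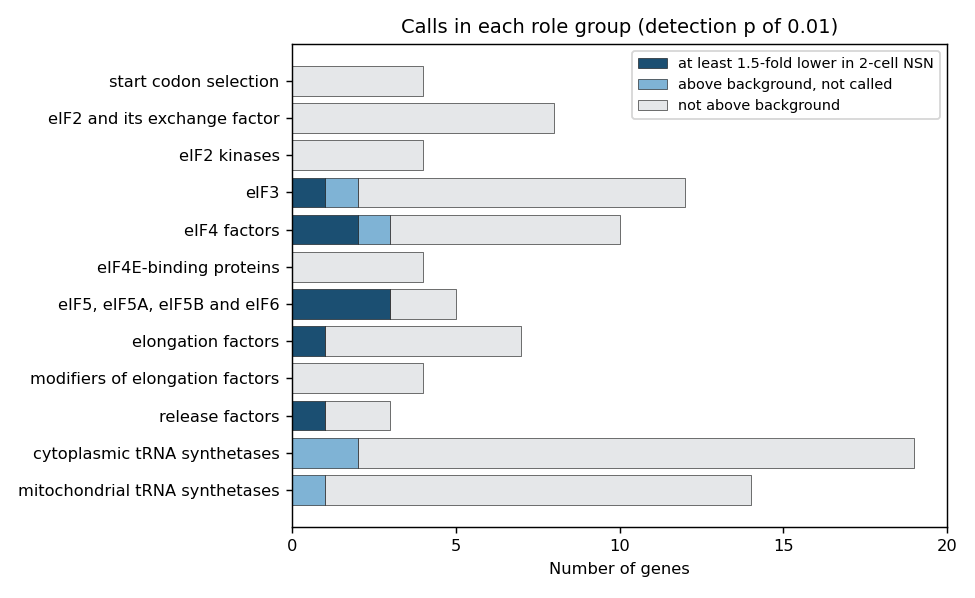
Number of genes in each of 12 role groups (bars), divided into those lower in 2-cell NSN embryos by at least 1.5-fold, those above background but not called, and those not above background at a detection p value of 0.01. The lower genes stand in the eIF3, eIF4, eIF5 to eIF6, elongation and release groups, and the synthetases hold 3 genes above background and none lower.

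Among genes with a control signal of at least 12.6, the loss of signal was common to the array. Of 8 such translation factor genes, 7 (87.5%) were under the limit on both NSN arrays, and of all 460 such genes 386 (83.9%) were. Between the NSN arrays, 1 translation factor gene was above background on either array and it did not differ by 1.5-fold. Of the 217 genes above background on either NSN array, 16 were at least 1.5-fold higher on NSN-a and 4 on NSN-b.

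Probes of one gene did not give like signals. Of the 13 genes above background 7 have several probes, and in 6 of them 1 probe was above background. The second Eif4a1 probe, annotated to the same transcript, had 1.82, 1.38 and -1.18, beside 294 in the control for the first. The second Eif4a2 probe had 2.29, -2.04 and -2.07, and the second Eif5a probe -0.678, 1.23 and -1.25, both within the background. The further Eif5 probes had 2.78, 1.71 and 0.539 and 0.908, 0.187 and -0.664, and with the probes of a gene averaged the Eif5 call was lost. The third Eif3i probe had 1.38, -1.74 and -3.70. Eif4e3 and Farsb likewise had 1 probe above background. Apart from the second Eif3i probe, the further probes of the lower genes lay within the background on all arrays. They did not repeat the control signal on which each call rests, and which probe reflects the transcript was not tested. Eif6, Etf1 and Eef1g have 1 probe each, so no further probe bears on their calls. The sequences of the probes were not used here, so their positions along the transcripts and their matches to related genes were not tested.

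**Figure D3:**
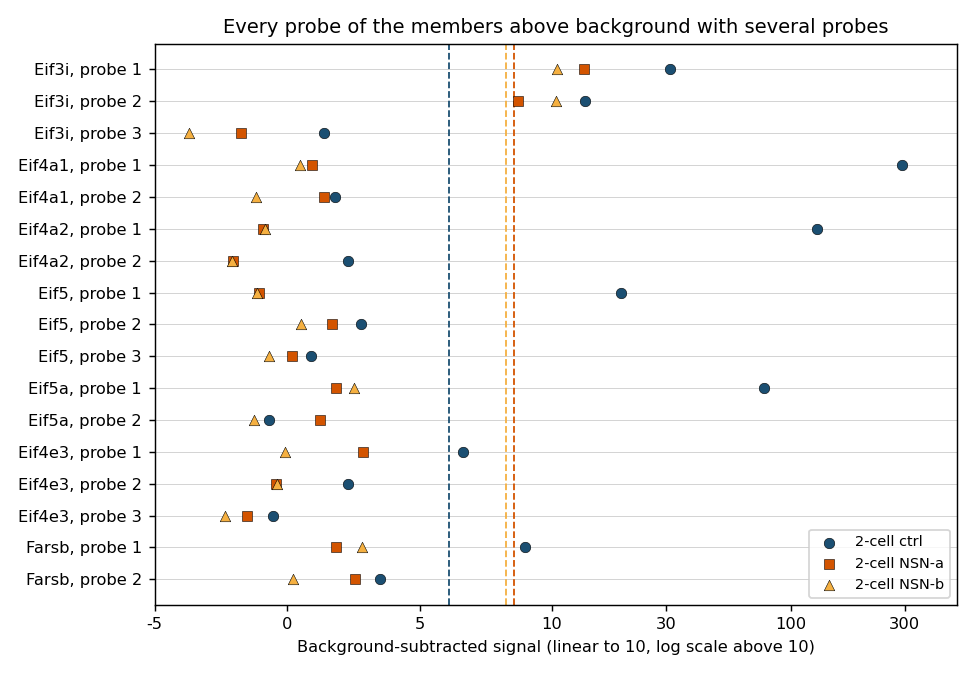
Signal of every probe of the 7 genes above background that have several probes (points for each array, axis linear up to 10 and logarithmic beyond, dashed lines at each array's limit for a detection p value of 0.01). In each gene the first probe carries the signal, and Eif3i is the gene with a second probe beyond the limits, at 13.8 in the control.

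At a detection p value of 0.05, with limits of 2.94, 3.30 and 3.18, 25 of the 94 genes (26.6%) were above background, against 15.0% of all genes. 17 were lower, where 36.9% of all genes above background were, and 2 were higher, where 8.53% were. Of the 12 genes added at this limit 11 passed in the control, so here too the filter favoured lower calls. The 5 genes not called above became lower, Eif3f by at least 3.66-fold, Fars2 by 2.94-fold, Farsb by 2.77-fold, Gars by 2.62-fold and Eif4e3 by 2.05-fold. Of the 12 genes that passed only here, 4 were lower: Eif4e1b and Eif4h, a cofactor of the helicase (at least 1.81-fold and 1.63-fold), and Eif2b4 and Eif3d (both at least 1.77-fold). Eif4h had 5.29 in the control and -1.44 and 0.0184 on the NSN arrays. The second Eif4e1b probe had 0.322, -2.89 and -5.04, within the background on all arrays.

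Both genes that were higher in 2-cell NSN embryos at this limit were tRNA synthetases. Eprs, which charges glutamate and proline, had 1.08 in the control, 6.64 on NSN-a and 4.16 on NSN-b, at least 1.79-fold higher. The second Eprs probe, annotated to the same transcript, had -2.16, 0.454 and 0.0613, within the background on all arrays, and did not repeat this call. Hars, which charges histidine, had 3.19 in the control and 5.39 and 5.54 on the NSN arrays, 1.71-fold higher and above the limit on all 3 arrays. Every one of these signals lay under the limits for a detection p value of 0.01. Lars2, the mitochondrial leucine enzyme, had 3.13, 4.38 and 2.36, and Aars, which charges alanine, 3.14, -1.12 and 1.55, and neither was called. Both NSN signals of Aars lay under their limits, so its fold is not known. Wars, the cytoplasmic tryptophan enzyme, had 0.585, 1.16 and 4.85, which is over the limit on 1 NSN array. Mars2 and Sars2, the mitochondrial enzymes for methionine and serine, were within the background on every array, at 1.21, 2.16 and 1.74 and at 1.17, 1.37 and 2.34.

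**Figure D4:**
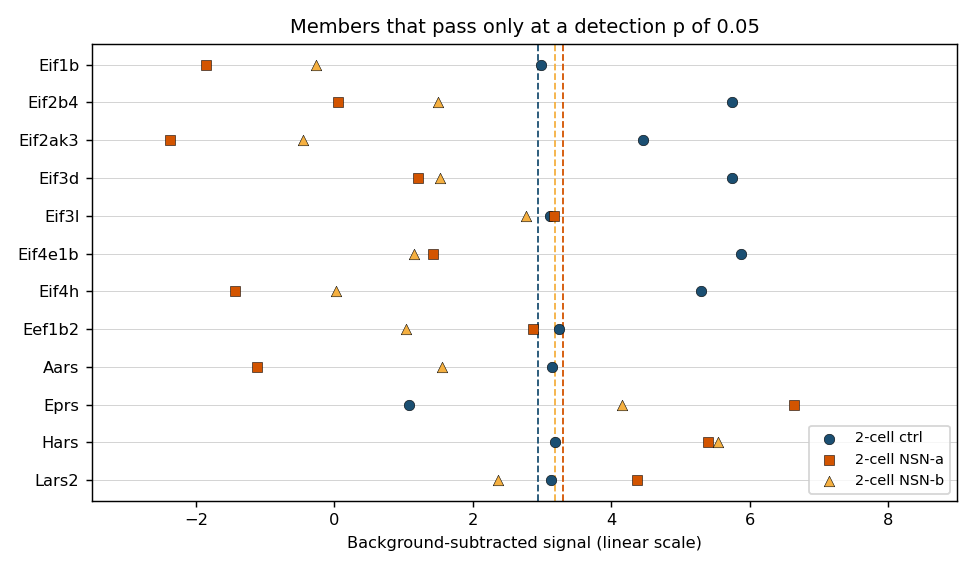
Signal on each array of the 12 genes that pass only at a detection p value of 0.05 (points, linear axis), with dashed lines at the limits of 2.94, 3.30 and 3.18. Eprs and Hars have both NSN points to the right of the control point, and Eif4e1b, Eif4h, Eif2b4 and Eif3d have the control point to the right of both NSN points.

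The remaining 69 genes were above background neither in the control nor on both NSN arrays, with signals from -2.99 to 2.84 in the control, from -3.04 to 4.73 on NSN-a and from -2.90 to 4.85 on NSN-b. No difference was detectable for them at this sensitivity.

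Further translation genes outside the rule numbered 42. They covered the poly(A) tail, ribosome recycling, hypusine and diphthamide, the synthetase complex, selenocysteine, mitochondrial factors, mTOR and the phosphatase of eIF2 alpha. Of these 42, 2 (4.76%) were above background, against 5.73% of all genes. Both were lower, where 44.4% of all genes above background were. Both had control signals over 12.6, and 83.9% of all such genes were under the limit on both NSN arrays. Paip2b, an inhibitor of the poly(A)-binding protein, had 37.4 in the control and -0.706 and -1.05 on the NSN arrays, at least 4.44-fold lower. Cnot7, a deadenylase of the CCR4-NOT complex, had 22.7 in the control and 0.682 and 0.729 on the NSN arrays, at least 2.69-fold lower. The poly(A)-binding protein gene Pabpc1 was within the background, at -0.704, 1.39 and 1.73. Mtor, the kinase upstream of the TOP mRNAs and the eIF4E-binding proteins, had 5.79, 6.23 and 4.47 and was not called. Among 63 cytoplasmic ribosomal protein genes, the other large part of the translation apparatus, 23 were above background, 5 of them on all 3 arrays. Of these 23, 17 (73.9%) were lower and 2 higher, where 44.4% and 8.32% of all genes above background were. Of the 13 translation factor genes above background 1 passed on all 3 arrays, and of all 950 genes above background 124 did. The calls of both families were not tested against each other.

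**Figure D5:**
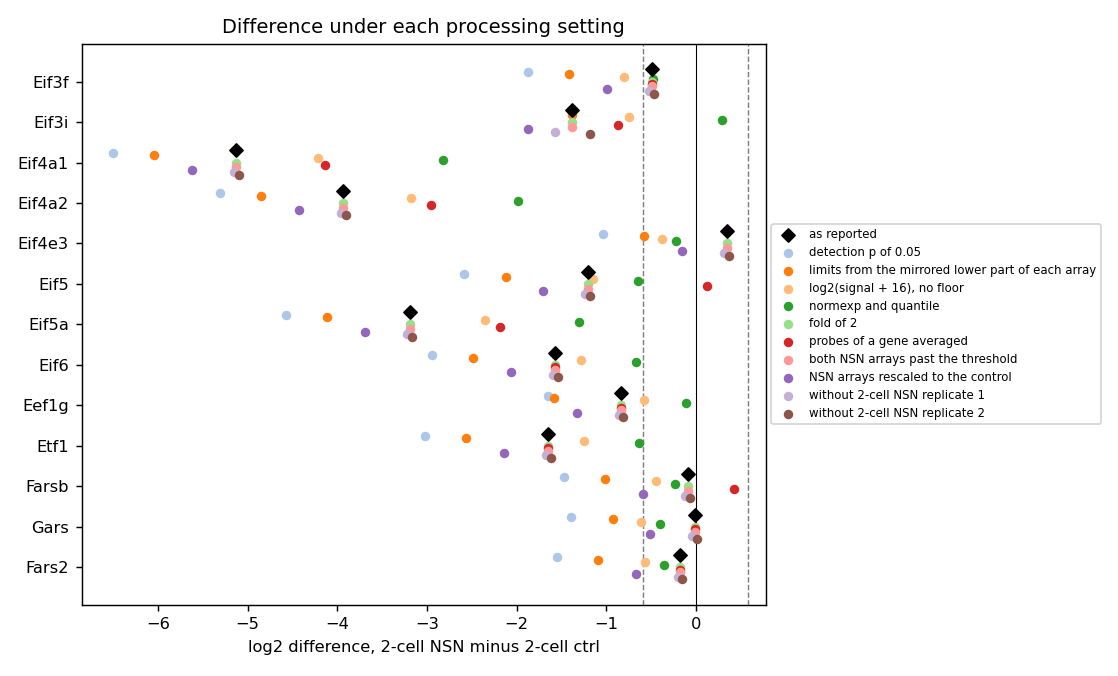
Log2 difference (2-cell NSN minus 2-cell ctrl) of each of the 13 genes above background as reported (black diamonds) and under each alternative processing (coloured points), with dashed lines at 1.5-fold. Eif4a1, Eif4a2, Eif5a, Eif6 and Etf1 lie beyond the left line under every setting shown, while the called genes Eif3i and Eif5 cross 0 under 1 setting each, and of the genes not called Eif4e3 (from 0.34 to -1.04), Farsb (from -0.09 to 0.43) and Gars (from -0.01 to 0.01) also change sign.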

How the data were processed

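The authors deposited a table of intensities on a linear scale, background-subtracted and, by the methods, rank-invariant normalised, made with BeadStudio 3 per the submitters' processing notes. The exact scaling between arrays is not known. A further deposited table with 3 columns of values that match no sample was not used. The detection limits were read from 1188 lines of a table of the study that pairs signals with detection p values, 896 of which matched 1 probe within 0.002%. No p value was held for NSN-b, and its limit is that of NSN-a scaled by the spread of signals below the median, which is an assumption. Of the probes, 23978 carry a symbol in the platform annotation.

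Signals were set to the limit where they lay under it and taken to log2, and the NSN value is the mean of both arrays. A difference of 1.5-fold or more was called. With 1 control array this is a count without a test. The probes above background on all 3 arrays were fitted with limma 3.58.1 (R 4.3.3, intensity trend, Benjamini-Hochberg adjustment), and p values measure only the spread between these samples. Counting used Python 3.11.15 and pandas 2.3.3, was tested on simulated data, and promoters were searched in RefSeq windows (GRCm38.p6). The number of arrays limits the precision.

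The genes named are those above background at 0.01 or 0.05, up to 4 of each role group with the highest mean signal, and further translation genes above background. Signals of every probe are given for genes called at 0.01 and for Eprs and Eif4e1b. Pabpc1 and Mtor were added after their values were seen. The members and lists were chosen with earlier results of these data known.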

Additional observations from a re-analysis of the deposited data

How the results depend on the processing

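The counts of 8 lower and 0 higher genes were set against 10 alternatives. The lower count was 9 on log2 of the signal plus 16, 6 after normexp and quantile normalisation, 7 at a fold of 2, 7 with the probes of a gene averaged, 8 with both NSN arrays required to pass, 11 after rescaling the NSN arrays to the control, 12 with limits mirrored from the lower part of the signals and 17 with the limits for a detection p of 0.05. The higher count moved to 2 at 0.05 (Eprs and Hars) and to 1 with the mirrored limits (Hars), and the number above background moved from 13 to 25 at 0.05. Leaving out either NSN array gave 8 to 8 lower and 0 to 0 higher, the same 8 genes. The control cannot be left out.

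Over all genes, lower and higher calls were 422 and 79 as reported and 510 and 29 with the offset of 16. They were 248 and 119 after quantile normalisation and 573 and 33 after rescaling. In the same order, the median log2 difference of the 950 genes above background was -0.40, -0.63, -0.36 and -0.90. Calls at 0.05 were 917 and 212, and with mirrored limits 704 and 147. Eif3i turned to 0.30 on the log2 scale after quantile normalisation and Eif5 to 0.13 with its probes averaged, where its averaged control signal lies between the control and NSN limits, so that the sign comes from the limits. In limma the brighter Eif3i probe turned to 0.30 after quantile normalisation (adjusted p = 0.164), and the dimmer one fell by 1.03 after rescaling (adjusted p = 0.0356). The limma counts of lower and higher probes were 31 and 59, 36 and 28 after rescaling and 8 and 86 after quantile normalisation. Taking every probe on its own, an alternative chosen after seeing the data, gave 8 lower and 0 higher. Except where the limits set the sign, the cause was not tested.

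No paired analysis was possible because the labels give the groups no shared replicate numbers and there is 1 control array.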
